A study of Caenorhabditis elegans with 2 samples.

Results

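The basement membrane genes described here are 10 genes of Caenorhabditis elegans, of 19973 nuclear protein-coding genes in the annotation. They were taken by name as genes of core basement membrane proteins. The rule uses no measured value, but the list was drawn up with earlier results of these data known. The type IV collagen genes are emb-9 and let-2, the laminin genes are epi-1 and lam-3 (alpha chains), lam-1 (beta) and lam-2 (gamma), and the others are unc-52 (perlecan), nid-1 (nidogen), cle-1 (type XVIII collagen) and mig-6 (papilin). The study mapped the chromatin sites of RNT-1, the RUNX transcription factor of the worm, by ChIP-seq in whole hermaphrodite late embryos, 5 h after bleaching of the mothers had synchronized them. All animals were of strain OP462, which carries the mutation unc-119(tm4063) on chromosome III and the transgene wgIs462, a stable insertion expressing RNT-1 with GFP and FLAG at its C terminus, and the sample description names an anti-GFP antibody, although a separate antibody entry gives rnt-1 instead. The sources used here do not give the promoter of the transgene or the read depth. There were 2 biological replicates with 1 library each, in 1 group, so no conditions were compared and no test between groups was possible.

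A basement membrane is a thin sheet of extracellular matrix that lies under epithelia and around muscle and nerve. Laminin, a trimer of an alpha, a beta and a gamma chain, and type IV collagen, a triple helix, each assemble into a network, and nidogen and perlecan link these networks to each other and to cells. In the worm, type IV collagen is made largely by body wall muscle and deposited on other tissues, and perlecan anchors the muscle to the epidermis. Whole embryos were used, so the cells in which a region was occupied cannot be told from these data.

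For each gene, regions were taken whose summit lay between 5 kb upstream of the gene and its end. The authors deposited 1 list of 1931 peaks thresholded by the irreproducible discovery rate (IDR), a measure of how well replicates rank the same peaks, 1 pooled list of 19793 regions called on both replicates together, and 1 list per replicate, with 18427 regions for replicate 1 and 21390 for replicate 2. The pooled and replicate lists keep background regions, so a region in them is not by itself a site. The signal of a region is the authors' score without a stated scale, and it is compared within a list only. The 1931 IDR peaks are also the strongest 1931 pooled regions, and the lowest of them has a signal of 95.8.

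Of the 10 genes, let-2 and mig-6 held an IDR summit, and they held 3 in all. This is 20% of the genes (95% exact interval 2.52 to 55.6, counting error only), against 14.9% of all protein-coding genes and 29.1% of the 1845 genes whose interval is at least as long as the shortest of the 10, which is 12115 bp. The median interval was 16.4 kb for the 10 genes and 7.03 kb for all genes. Per length, the 10 intervals held 1.60 IDR summits per 100 kb and the merged intervals of all protein-coding genes 1.96. The share is thus between those of all genes and of genes with long intervals. Only let-2 had an IDR summit in a start window, from 1000 bp upstream to 200 bp downstream of an annotated start, while 6.76% of all genes had one. Every one of the 10 genes held at least 1 pooled region, as did 67.0% of all genes. The longer intervals of the 10 genes make this easier to reach, and no share among genes with long intervals was computed for it.

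The sequences around the 3 IDR summits are shown first, as 101 bases centred on the summit, read on the strand of the gene from the RefSeq genome of build ce11 (WBcel235). Capitals mark the words searched on either strand, which were the GA repeat GAGAGA, the GATA-type word TGATAA, the E-box CAGCTG and the RUNX core in its forms TGTGGT and also TGCGGT. None of these 3 windows holds a RUNX core word.
let-2, 3005 bp upstream, chrX:16392295-16392395, minus strand: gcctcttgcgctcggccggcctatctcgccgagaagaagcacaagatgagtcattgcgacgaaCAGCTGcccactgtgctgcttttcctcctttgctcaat
let-2, 163 bp upstream, chrX:16389453-16389553, minus strand: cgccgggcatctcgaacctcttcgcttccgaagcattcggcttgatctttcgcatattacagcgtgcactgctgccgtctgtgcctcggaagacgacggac
mig-6, 4378 bp upstream, chrV:7822789-7822889, plus strand: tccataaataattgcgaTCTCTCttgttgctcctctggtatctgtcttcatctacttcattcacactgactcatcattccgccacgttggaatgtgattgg

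The type IV collagen gene let-2 (WBGene00002280, 16380597 to 16389340, minus strand, 8744 bp) carried 2 IDR summits on chromosome X, both upstream of its first start at 16389340. The stronger lay at 16392345, 3005 bp upstream, in a region from 16392127 to 16392562 with a signal of 245 and rank 199 of the pooled list. Its overlapping region ranked 262 in replicate 1, with a signal of 139, and 225 in replicate 2, with 95.8. Both replicates thus placed it among their strongest regions, with summits 26 bp and 0 bp from the pooled one. The second lay at 16389503, 163 bp upstream of the start, with a signal of 140.0 and rank 929. It ranked 906 in replicate 1 and 1030 in replicate 2. Annotated non-coding RNA genes cover both places, F01G12.9 and F01G12.13 at the far summit and F01G12.12 at the near one, and position alone does not assign a peak to one of these genes. No other protein-coding start was nearer to either summit than that of let-2. In the gene body of let-2 the strongest region was in an intron, at 16388072, 1255 bp downstream of the nearest start. It had a signal of 86.8 and rank 2306, below the IDR threshold. The replicates differed there, with rank 4465 in replicate 1 and 1125 in replicate 2.

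The papilin gene mig-6 (WBGene00003242, 7827217 to 7842390, plus strand), needed for migration of the distal tip cells of the gonad, had the strongest region of all 10 genes. It lay on chromosome V from 7822621 to 7823056 with its summit at 7822839, a signal of 319 and rank 83. It ranked 164 in replicate 1, with a signal of 163, and 34 in replicate 2, with 157. The replicate 1 summit was 78 bp nearer to the gene. The place is 4378 bp upstream of the first mig-6 start but only 2261 bp downstream of the start of lbp-4, a lipid-binding protein gene on the same strand that ends at 7821477. The summit therefore lies between these 2 genes, and by nearest start it would go to lbp-4. Near mig-6 itself the strongest region was 570 bp upstream, with a signal of 77.4 and rank 2816, at rank 1987 in replicate 1 and 6909 in replicate 2.

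The other type IV collagen gene, emb-9 (WBGene00001263, chromosome III, 9336881 to 9344447, minus strand), had no IDR summit, but its strongest region was the next below the threshold among the 10 genes. It lay 1847 bp upstream of the start at 9344447, with its summit at 9346294, a signal of 92.2 and rank 2068, just outside the 1931 peaks of the ce11 IDR list. The longer IDR list of build ce10 was not analysed here. The replicates differed widely there, with rank 8228 in replicate 1 and 881 in replicate 2. A second region 2449 bp upstream had a signal of 85.8 and rank 2360, with ranks 2809 and 2391 in replicates 1 and 2. By replicate alone, emb-9 reached the 1931 strongest regions in both, but at different places: replicate 1 had rank 1426 in a coding exon, 4280 bp downstream of the first start, and replicate 2 the upstream region. The nearest IDR summit outside the emb-9 interval was 94199 bp away, at pir-2.

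The next sequences belong to regions below the IDR threshold, the leading upstream regions of emb-9 and unc-52, the intron region of lam-1 and the region of mig-6 nearest to that gene's own start. They are shown to compare them with the IDR windows above, in the same form.
emb-9, 1847 bp upstream, chrIII:9346244-9346344, minus strand: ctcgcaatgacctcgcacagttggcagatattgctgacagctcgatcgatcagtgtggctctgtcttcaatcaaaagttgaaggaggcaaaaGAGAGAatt
emb-9, 2449 bp upstream, chrIII:9346846-9346946, minus strand: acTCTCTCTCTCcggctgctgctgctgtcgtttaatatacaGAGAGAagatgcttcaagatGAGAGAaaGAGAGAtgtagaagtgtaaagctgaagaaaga
unc-52, 2681 bp upstream, chrII:14687087-14687187, minus strand: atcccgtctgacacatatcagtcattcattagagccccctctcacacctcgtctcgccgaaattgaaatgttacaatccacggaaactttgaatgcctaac
lam-1, 343 bp downstream in an intron, chrIV:5173625-5173725, plus strand: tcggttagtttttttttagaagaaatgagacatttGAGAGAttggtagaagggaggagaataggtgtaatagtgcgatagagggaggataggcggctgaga
mig-6, 570 bp upstream, chrV:7826597-7826697, plus strand: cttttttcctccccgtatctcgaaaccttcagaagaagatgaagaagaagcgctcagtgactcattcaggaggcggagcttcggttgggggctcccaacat

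The emb-9 region at 2449 bp carries several GAGAGA words, on both strands, and some of them overlap in longer GA runs. The lam-1 window, the mig-6 window at 4378 bp and the other emb-9 window carry 1 each. GAGAGA was within 50 bp of 16 of the 71 pooled summits at the 10 genes, or 22.5%, and of 29.7% of all nuclear IDR summits and 14.1% of all nuclear pooled summits. The far let-2 window holds CAGCTG, the E-box form that muscle bHLH factors can bind, a word found at 4.68% of all nuclear IDR summits. TGATAA, a form of the GATA factor site, was in none of the 3 IDR windows, and at 3.69% of all nuclear IDR summits. These matches describe letters and not bound sites.

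The RUNX core, TGTGGT or TGCGGT on either strand, was absent within 50 bp of all 3 IDR summits (95% exact interval of the share 0 to 70.8), and 14.8% of all nuclear IDR summits hold it there. The exact interval covers counting error only and treats the 3 summits as independent, although 2 of them lie upstream of let-2. The nearest core word was TGCGGT at 137 bp from the near let-2 summit, inside the deposited region. It was 843 bp from the far let-2 summit and 1164 bp from the mig-6 summit. Among the 71 pooled summits at the 10 genes, 7 had the core within 50 bp, or 9.86%, and 8.66% of all nuclear pooled summits did. All 7 were TGTGGT. In the 1000 bp upstream of the first start, 5 of the 10 genes had at least 1 core word, namely let-2, lam-2 and cle-1 with 2 each and emb-9 and unc-52 with 1 each, as did 40.5% of all protein-coding genes. The nid-1 region 1208 bp upstream is shown because it is the only strongest region of a member with the core at its summit; capitals mark the core.
nid-1, 1208 bp upstream, chrV:12908849-12908949, plus strand: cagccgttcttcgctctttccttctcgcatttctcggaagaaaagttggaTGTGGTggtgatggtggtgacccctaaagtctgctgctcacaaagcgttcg

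**Figure D1:**
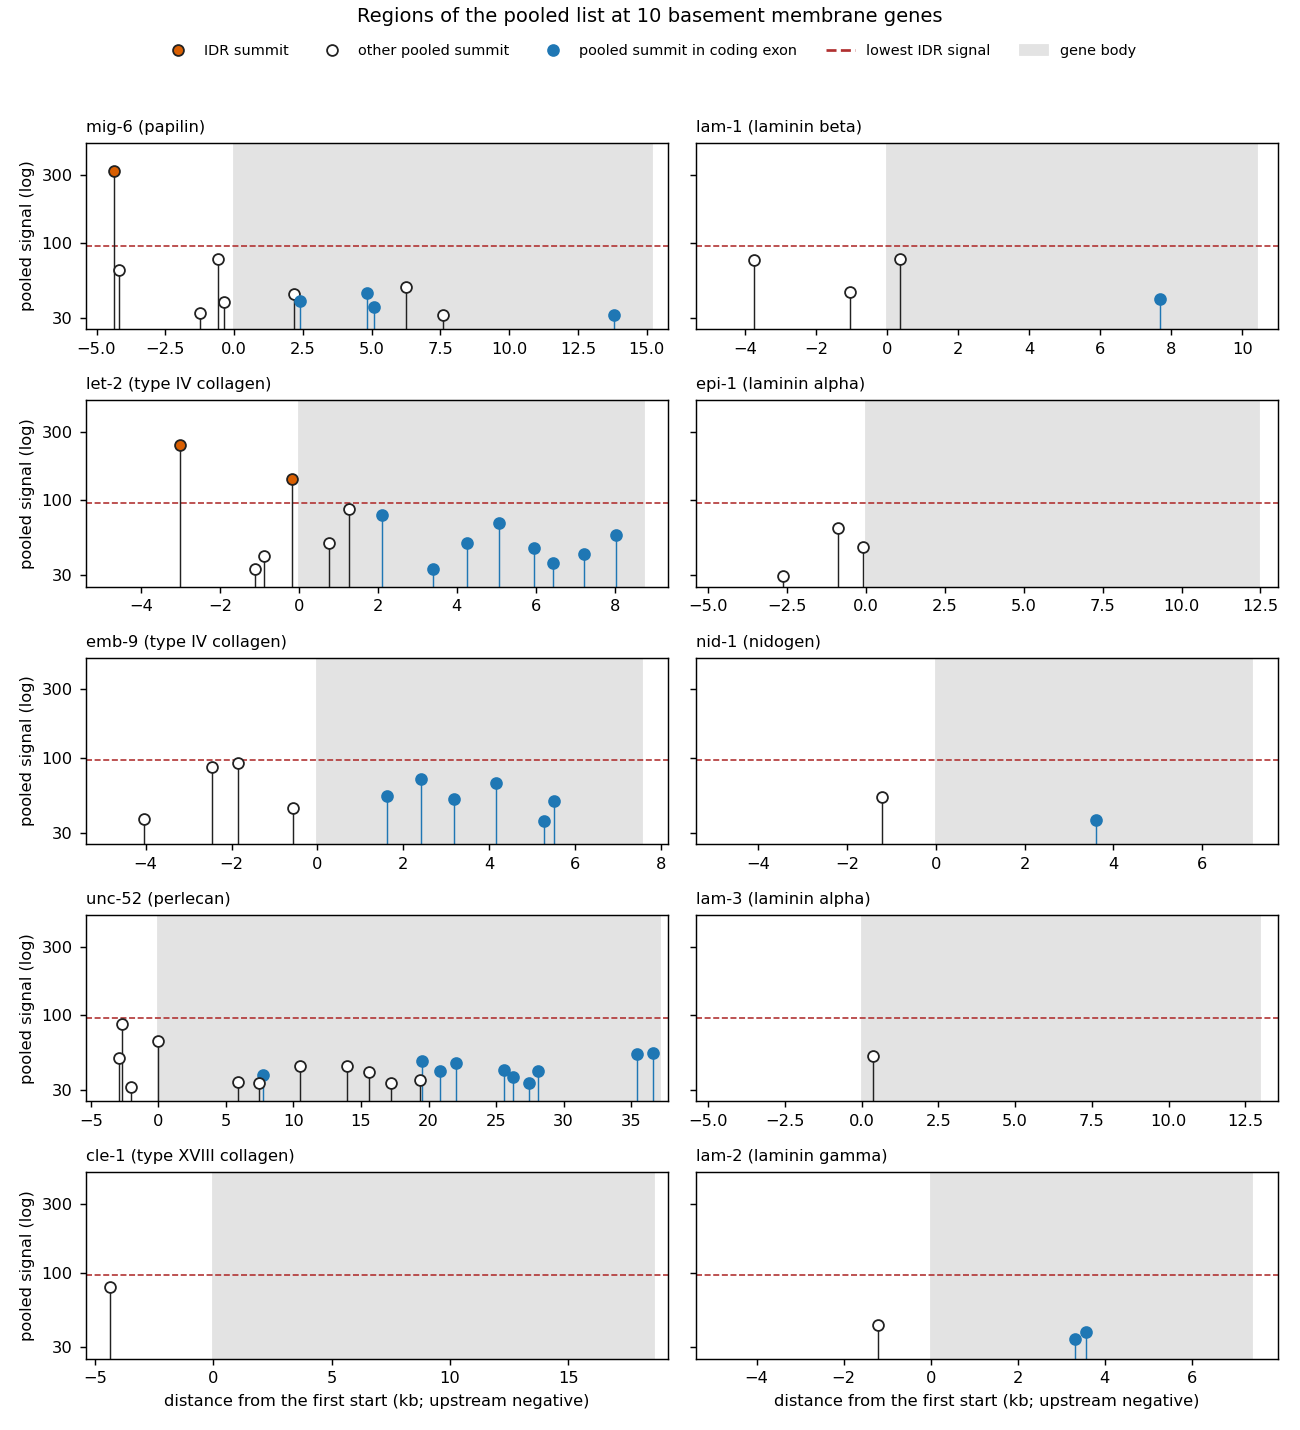
Signal in the pooled list (vertical axis, log scale, no stated unit) against distance of the summit from the first annotated start in kb (horizontal axis) for each of the 10 genes, ordered by their highest signal. The 3 filled orange points, at mig-6 and let-2, lie above the dashed line at 95.8, the lowest IDR signal; the summits in coding exons, in blue, are dense in let-2, emb-9 and unc-52 and lie below the line.

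The laminin genes had no IDR summit. Their strongest regions had signals from 42.7 to 77.7, below the IDR threshold but above the median of the pooled list, which was 41.0. That median is over single regions, so taking the strongest of several regions of a gene favours values above it. The weakest regions of epi-1, lam-1 and lam-2 were below it, at 29.5, 40.5 and 34.2. At lam-1 (WBGene00002247, chromosome IV, 5173332 to 5183746, plus strand), the only beta chain, a region 343 bp downstream of the first start had a signal of 77.7 and rank 2788, with ranks 3600 and 3066 in replicates 1 and 2. A second, 3764 bp upstream, had 75.6, but it was nearer to the start of ptp-5.1, 3238 bp downstream of it. The alpha chain gene epi-1 (WBGene00001328, chromosome IV, 10666823 to 10679291, plus strand) reached 64.2 at 879 bp upstream, rank 3899, with ranks 11146 and 2465 in replicates 1 and 2. The other alpha chain gene, lam-3 (WBGene00002248, chromosome I, 10608466 to 10621435, plus strand), had 1 pooled region, 380 bp downstream of its start with 51.9, at ranks 6052 and 13784 in replicates 1 and 2. The gamma chain gene lam-2 (WBGene00016913, chromosome X, 7143846 to 7151239, minus strand) was lowest of the 10, with 42.7 at 1207 bp upstream, rank 8993, no region in replicate 1 and rank 6710 in replicate 2. None of the 4 laminin genes reached the 1931 strongest regions of either replicate. An IDR summit with a signal of 175 lay 116 bp past the end of lam-1, and it was 261 bp upstream of W03F8.4.

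Perlecan, nidogen and type XVIII collagen genes also had no IDR summit. The strongest region of unc-52 (WBGene00006787, chromosome II, 14647321 to 14684456, minus strand, 37136 bp) lay 2681 bp upstream of its first start, with a signal of 86.4 and rank 2328, and its replicates were close, at ranks 3028 and 2559. At the first start itself unc-52 had 65.6, at rank 2770 in replicate 1 but only 16767 in replicate 2. The nidogen gene nid-1 (WBGene00003738, chromosome V, 12910107 to 12917221, plus strand) had 53.2 at 1208 bp upstream, at rank 2700 in replicate 1 and with no region in replicate 2. The single pooled region of the interval of cle-1 (WBGene00000527, chromosome I, 8705668 to 8724279, minus strand) had 79.6, but it lay 4349 bp upstream of cle-1 and 136 bp upstream of rpb-3, an RNA polymerase II subunit gene. In both replicates the summit was nearest to the start of pas-4, a proteasome subunit gene on the strand opposite to rpb-3, and the non-coding RNA gene C36B1.16 covers the place. The gene body of cle-1 held no pooled region.

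**Figure D2:**
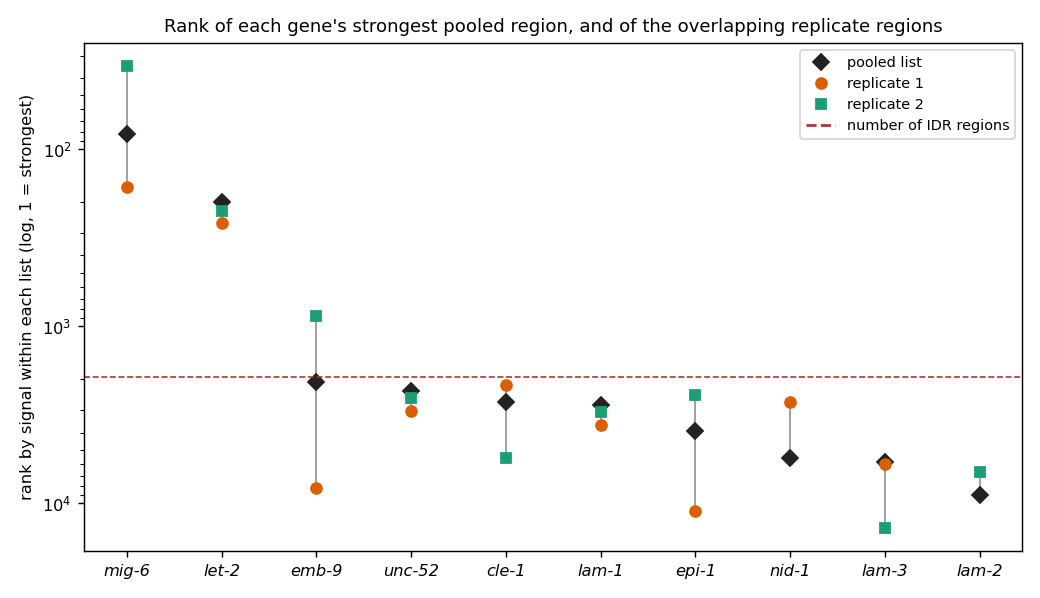
Rank by signal (vertical axis, log scale, 1 is the strongest) of the strongest pooled region of each gene, in the pooled list and of the overlapping region in replicates 1 and 2. For mig-6 and let-2 all 3 points lie above the dashed line at 1931, the number of IDR peaks; emb-9 spans it, from 881 in replicate 2 to 8228 in replicate 1, and a missing point means no overlapping region.

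Below the signals of mig-6 and let-2, the order of the genes was not stable between replicates. In the pooled list emb-9 was followed by unc-52, cle-1, lam-1, epi-1, nid-1, lam-3 and lam-2. In replicate 1 the best of these regions by rank was that of cle-1, at 2145, and emb-9 was at 8228. In replicate 2 emb-9 was first, at 881, then epi-1 at 2465, and cle-1 was at 5530. With 2 libraries no spread can be tested, and neighbours in this order are not separated beyond the difference between replicates.

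The 10 genes held 71 pooled regions, all below the IDR threshold but for the 3 IDR peaks, and these were spread unevenly. There were 21 at unc-52, 14 at let-2, 12 at mig-6 and 10 at emb-9, and each of the others had 1 to 4. In the type IV collagen genes many lay in coding exons. The density was 3.78 pooled regions per 10 kb in the 10 intervals and 2.01 in the merged intervals of all protein-coding genes. It was 10.2 per 10 kb at let-2 with 14 regions, and 7.96 at emb-9 with 10. A density as high as that of let-2 was reached by 0.155% of all genes, and one as high as that of emb-9 by 0.856%. Over the gene body alone, without the upstream 5 kb, the shares were larger, at 2.25% for let-2 and 5.40% for emb-9. Over the whole interval mig-6 had 5.95 and unc-52 4.98 per 10 kb, and lam-1 and lam-2 had 2.59 and 2.42. The remaining genes were below the 2.01 of all protein-coding intervals, epi-1 with 1.72, nid-1 with 1.65, lam-3 with 0.556 and cle-1 with 0.424. The median over single protein-coding genes was 1.54, so epi-1 and nid-1 lay above it and lam-3 and cle-1 below it. Pooled regions can overlap each other, so 1 stretch can count more than once.

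Of the 71 summits, 32 lay in coding exons, or 45.1%, 13 in introns, 2 in other exon parts and 24 upstream. Of all nuclear pooled summits 22.3% lay in coding exons, and of all nuclear IDR summits 1.09%. These shares are over the whole nuclear genome and the exons of all genes. Places at the 10 genes use the exons of that gene only. The shares are therefore not matched for the amount of coding sequence. The coding summits were 8 in let-2, 6 in emb-9, 10 in unc-52, 4 in mig-6, 2 in lam-2 and 1 each in lam-1 and nid-1. Per 10 kb of coding sequence let-2 had 14.9 and emb-9 11.4, then unc-52 7.68 and mig-6 6.15, and all protein-coding genes 1.79. Among the 242 genes with at least as much coding sequence as emb-9, let-2 had the highest density and emb-9 the third highest. Their signals were all low, from 31.3 to 79.0 over the 7 genes with coding summits, and none reached the IDR threshold. In let-2 and emb-9, 23 of the 24 pooled regions overlapped a region in both replicates, or 95.8%, against 56.1% of all nuclear pooled regions. For unc-52 it was 11 of 21. An overlap of 1 bp was enough, and let-2 held 16 and 14 regions in replicates 1 and 2, and emb-9 11 and 12. Where regions are this dense an overlap is easier to reach, and neighbouring pooled regions can overlap the same replicate region. The share is therefore not separate from the density and does not measure reproducibility.

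The strongest coding summits of both collagen genes are shown here in the same form, to let the reader see their base composition.
let-2, 2082 bp downstream of the nearest start, coding exon, chrX:16387195-16387295, minus strand: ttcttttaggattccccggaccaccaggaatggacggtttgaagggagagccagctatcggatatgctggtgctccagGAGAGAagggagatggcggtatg
emb-9, 2356 bp downstream of the nearest start, coding exon, chrIII:9341992-9342092, minus strand: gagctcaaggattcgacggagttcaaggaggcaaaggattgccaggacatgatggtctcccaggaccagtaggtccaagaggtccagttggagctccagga

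The density moved with the G+C content of the coding sequence, which was 57.0% in let-2, 53.6% in emb-9, 49.6% in mig-6, just under 50% in unc-52 and 40.1 to 44.4% in the other 6 genes. Over all protein-coding genes the density was 0.473 per 10 kb where coding G+C was under 40%, 1.27 from 40 to 45%, 3.19 from 45 to 50%, 5.41 from 50 to 55% and 8.71 at 55% or more. Taken over all members of a class, let-2 with 14.9 was the only one at 55% or more and emb-9 with 11.4 the only one from 50 to 55%, and unc-52 and mig-6 together had 7.17 from 45 to 50%, each above all genes of that class. The 6 members from 40 to 45%, the 4 laminin genes, nid-1 and cle-1, together had 1.01, with 4 summits in 39.4 kb, which is below the 1.27 of all genes of that class. By G+C content of the whole gene, 683 protein-coding genes were at or above let-2, which had 47.0%. Their median was 1.92 pooled regions per 10 kb of interval, against 1.54 for all protein-coding genes. Over the gene body alone the median was 0 in both sets. The part of base composition in the low regions of the collagen genes was not tested beyond these values. The 14 coding windows of let-2 and emb-9 had G+C contents from 52.5 to 60.4%. The 3 IDR windows had 56.4% and 58.4% at let-2 and 42.6% at mig-6, where the median of all nuclear IDR windows was 49.5%.

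**Figure D3:**
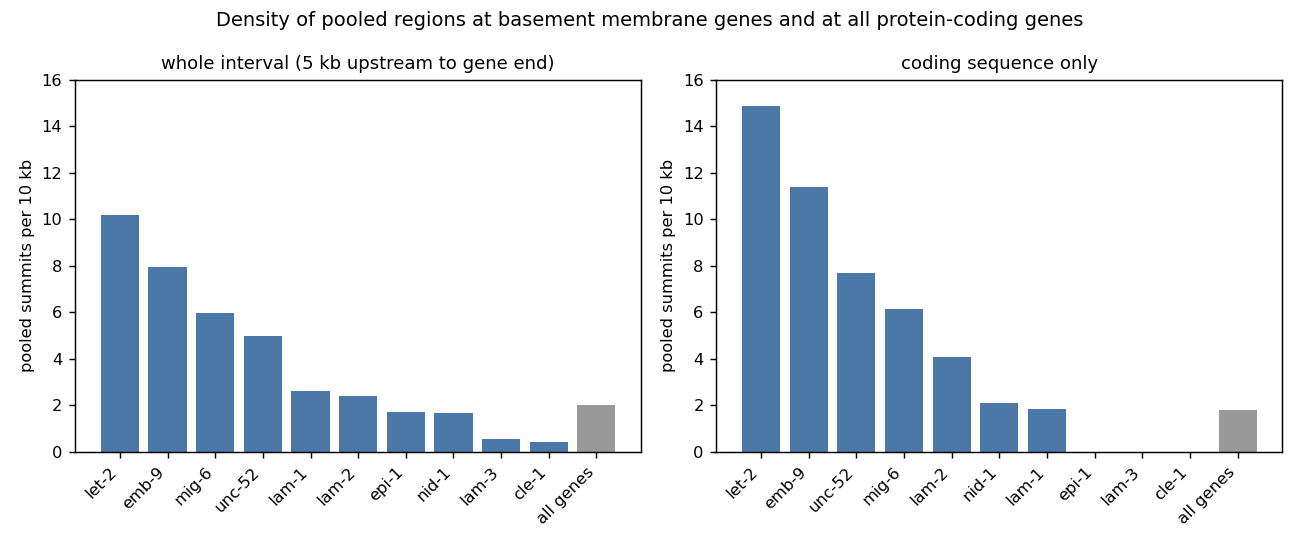
Pooled summits per 10 kb for each of the 10 genes (blue bars) and for all protein-coding genes (grey bar), over the interval from 5 kb upstream to the gene end (left) and over coding sequence only (right). let-2 and emb-9 have the tallest bars in both panels, 10.2 and 7.96 on the left and 14.9 and 11.4 on the right, and epi-1, lam-3 and cle-1 have 0 on the right.

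A fixed list of 32 genes that act with the basement membrane was described in the same way. It holds other matrix components, receptors, enzymes of collagen modification and secretion, and matrix proteases with their inhibitors. Of these, 14 had an IDR summit in the interval, or 43.8% (95% exact interval 26.4 to 62.3), beside 14.9% of all protein-coding genes. Their median interval was 11.4 kb, against 7.03 kb for all genes. Among genes with intervals of at least 12115 bp the share was 29.1%, but that cut is above the median of the list, so the lengths are not matched. The list was drawn up with earlier results of these data known, and the exact interval covers counting error only. Whether the share exceeds that of other genes was not tested. In a start window 2 of the 32 genes had a summit, beside 6.76% of all protein-coding genes. At him-4, agr-1, let-268, dpy-18, pdi-2 and zmp-1 the only IDR summit was nearer to the start of another gene. The 14 genes with an IDR summit held 17, most of them in introns or more than 1 kb upstream.

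Among other matrix components 6 of 12 had an IDR summit. The peroxidasin gene pxn-1 had one in an intron, 5659 bp from the nearest start, with a signal of 354 and rank 54. The hemicentin gene him-4 had 317 in an intron, with F15G9.5 as the nearest start, at rank 84, and ranks 82 and 124 in replicates 1 and 2. The SPARC gene ost-1, whose protein binds collagen, had 254 at 690 bp upstream of one of its starts and 147 at 48 bp upstream of another. The signal at pxn-1 was above the highest of the 10 basement membrane genes, and those at him-4 and of the stronger ost-1 summit lay between the strongest regions of let-2 and mig-6. The netrin gene unc-6 had 160 in an intron, the agrin gene agr-1 119 at 217 bp upstream of the start of ssup-72, and the fibulin gene fbl-1 115 at 2351 bp upstream. pxn-2 had no pooled region.

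Of 9 receptor genes 4 had an IDR summit. The beta integrin gene pat-3 had 223 and 159, the first of them 152 bp upstream of ccdc-47, and the alpha integrin gene pat-2 had 155 at 3057 bp upstream. The netrin receptor gene unc-40 had 150 in an intron, and the syndecan gene sdn-1 had 149 and 97.8, both more than 3 kb upstream. The other alpha integrin gene ina-1, the dystroglycan gene dgn-1, the discoidin receptor genes ddr-1 and ddr-2 and the LAR-type phosphatase gene ptp-3 had none.

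Of 5 genes for collagen modification and secretion 3 had an IDR summit, all nearer to the start of another gene. The disulfide isomerase gene pdi-2 had 170 at 177 bp upstream of C07A12.7, the lysyl hydroxylase gene let-268 had 147 at 425 bp upstream of mtcu-2, and the prolyl hydroxylase gene dpy-18 had 117 at 1521 bp upstream of subs-4. Of 6 matrix protease and inhibitor genes only zmp-1, a matrix metalloprotease gene, had one, in an intron with 95.8, the last of the 1931 IDR peaks by rank. That summit was 781 bp upstream of the start of EGAP1.5, nearer than to the start of zmp-1.

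**Figure D4:**
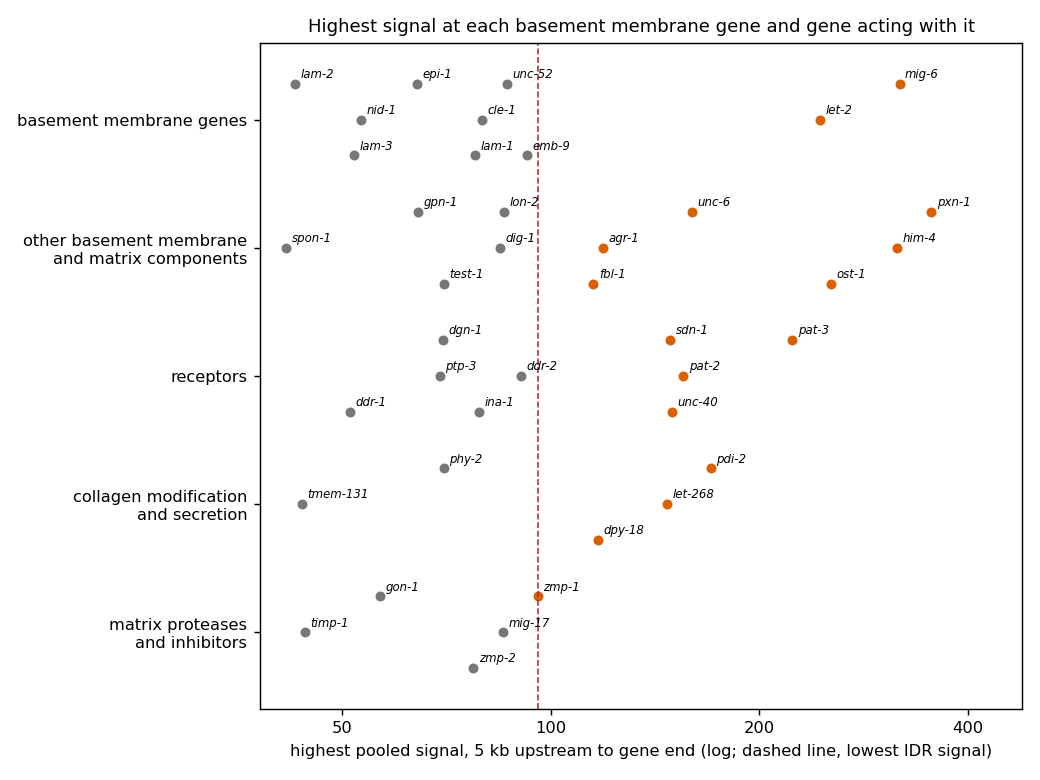
Highest pooled signal between 5 kb upstream and the gene end (horizontal axis, log scale, no stated unit) for the 10 basement membrane genes and for the 32 genes of the fixed list by group; pxn-2 and cri-2 have no pooled region and no point. Orange points, at or above the dashed line at 95.8, are the 2 basement membrane genes mig-6 and let-2 and 14 genes of the fixed list.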

How the data were processed

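The authors deposited narrowPeak lists per replicate, pooled and IDR-thresholded, made with a control alignment per the deposited file descriptions. The sources used here name no aligner, peak caller or IDR threshold. The region signal is a score the authors deposited, and the deposited −log10 q-value was 2.07 in every IDR peak and was not used for ranking. The lists of build ce10 were not used, because no coordinates were converted; the IDR list of that build is longer, and whether the upstream emb-9 region is in it was not analysed here.

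The regions of build ce11 were placed on genes of Ensembl release 115 (WBcel235) with Python 3.11.15, NumPy 2.4.6 and pandas 2.3.3. Positions are 1-based, so a summit is the sum of columns 2 and 10 plus 1. Replicate values are those of the strongest overlapping region (1 bp or more). Exact intervals used SciPy 1.17.1. Placement was tested on simulated data. The members and lists were chosen with earlier results of these data known. Named genes are the 10 members, genes whose start is nearest to a member IDR summit, and fixed-list genes with an IDR summit; genes named otherwise, such as receptors without a summit and neighbours of regions outside the intervals, and the setting apart of the collagen genes, were chosen after values were seen. The interval classes of G+C were also chosen then. No test between groups was run, since there is 1 group.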

Additional observations from a re-analysis of the deposited data

How the results depend on the processing

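The start window count (1 gene) and the count of genes with a pooled region (10) did not move under any alternative run. The count of genes with an IDR summit was 2, and 1 with limits of 2 kb or 1 kb upstream and with only summits nearest to the gene's own start, since the mig-6 peak was then lost. It was 6 among the 3862 strongest pooled regions, where 25.2% of all genes had a region. Leaving out a replicate, with the 1931 strongest regions of the other in place of the IDR list, gave 3 each time, let-2, mig-6 and emb-9. Of all protein-coding genes, 14.7% had a region without replicate 1 and 14.9% without replicate 2. The number of summits was 3, and 1 with limits of 2 kb or 1 kb, 17 among the 3862 regions, and 4 to 5 with 1 replicate left out. Per 100 kb this was 0.635 and 0.678 with 2 kb and 1 kb, 9.06 among the 3862 regions, and 2.13 to 2.67 with 1 replicate left out. The density over all genes was not computed under these settings, so these values have no background beside them. Counting any overlap added the lam-1 neighbour peak, for 3 genes. The fixed list had 2 of 32 genes in a start window, beside 6.76% of all protein-coding genes. In the interval it had 13 to 15 with 1 replicate left out. The RUNX core was in 1 of 3 deposited regions over their whole width. Read depth is unknown, and 2 libraries give no spread.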
